A study of Mus musculus with 26 samples.

Results

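The genes described here encode 10 cell-surface guidance receptors: the plexins Plxna1, Plxna2, Plxna3, Plxnb1 and Plxnb2, the netrin receptors Unc5a and Unc5b, the neuropilins Nrp1 and Nrp2, and the neuropilin-like protein Dcbld2. They are 10 of the 55401 gene IDs in the count table, found by matching each ID to these symbols in GENCODE vM21, and each symbol matched 1 ID. They were selected on measured differences between groups in these data, and which comparison was used is not recorded. All values of the 10 genes are therefore descriptions, and no p-value is given for them.

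RNA was measured in mouse 1-cell embryos and oocytes, in 26 libraries of 5 groups. All embryos came from in vitro fertilisation of B6D2F1 oocytes, taken from 8-week-old females, with B6D2F1 sperm. One numbered series held 7 libraries of embryos kept for 10 h in a small molecule that stops c-Myc, a transcription factor, from binding its partner Max, and 7 libraries of control embryos. The compound, a thioxo-thiazolidinone with an ethylphenyl-methylene side group, carries a code name in the labels and is called the c-Myc inhibitor here. It was added 2 h after insemination, at a dose that the sources used here do not state. The other series held 4 libraries of embryos treated with alpha-amanitin, a toxin that blocks RNA polymerase II, which was kept at 100 µg/ml for 10 h and added 1 h after insemination. That series also held 4 libraries of control embryos and 4 of unfertilised metaphase II (MII) oocytes of B6D2F1 females. The labels give every embryo an age of 10 h, although the times of each treatment add up to more. The number of embryos or oocytes in a library is not stated outright and no parent animals or culture batches are named, so n counts libraries. SDs and p-values then reflect only how far these libraries differ, which may be technical.

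Library totals lay between 20566278 and 27266040 counts in the c-Myc inhibitor series and between 5371602 and 31540627 in the alpha-amanitin series, with replicate 3 of the alpha-amanitin embryos the lowest. Replicate libraries correlated less in the treated and control embryos of the alpha-amanitin series (Spearman 0.637 to 0.807 and 0.774 to 0.814 across all gene IDs) than in the c-Myc inhibitor embryos (0.873 to 0.885), their controls (0.848 to 0.865) or the oocytes (0.846 to 0.861). All 12 oocyte markers had counts in every group. Their summed level was 8200 to 9860 CPM in c-Myc inhibitor embryos and 5130 to 6830 CPM in their controls, 5460 to 7460 CPM in alpha-amanitin embryos and 5310 to 6380 CPM in their controls, and 8920 to 9650 CPM in oocytes. CPM is the gene's count divided by the library's scaled total. Of the 12 markers 6 passed as higher in c-Myc inhibitor embryos than in their controls, against 6.82% of all genes tested. The fitted change was negative for 4. In control embryos of the alpha-amanitin series against oocytes 6 passed as lower, against 1.78% of genes, and 3 were positive. The sum thus moved with the receptor genes described below in these comparisons. Between alpha-amanitin embryos and their controls, with overlapping ranges, its median was higher (7050 against 5930 CPM). That of the summed receptor genes was lower (460 against 492 CPM). The part of the markers in the receptor values was not tested. The 15 cumulus and granulosa cell markers summed to at most 7.88 CPM in c-Myc inhibitor embryos and 24.9 CPM in their controls, 18.3 CPM in alpha-amanitin embryos and 32.4 CPM in their controls, and 60.4 CPM in oocytes. Areg and Ereg were at 0 counts in every library. The 8 sperm and spermatid markers summed to at most 15.6 CPM in c-Myc inhibitor embryos, 10.4 CPM in their controls, 22.3 CPM in alpha-amanitin embryos, 20.7 CPM in their controls and 15.6 CPM in oocytes, with Tnp1, Tnp2 and Smcp at 0 throughout.

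Plexins are the main receptors for semaphorins, secreted or membrane-bound cues that steer axons and shape cell contacts. Their cytoplasmic part acts on small GTPases of the Rap and R-Ras families, and neuropilins bind class 3 semaphorins and VEGF and hand the signal to class A plexins. UNC5 proteins bind netrins and mediate repulsion, and Dcbld2 is a membrane protein whose extracellular domains resemble those of the neuropilins. In the oocyte, messenger RNA is stored in the absence of new transcription, and much of it is degraded around fertilisation, before and while the embryo begins to transcribe its own genome.

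The matched start sites of the receptor genes lie in GC-rich sequence. It is shown here for the gene with the largest rise under the c-Myc inhibitor and for the only one that also passed as lower in embryos than in oocytes. RefSeq promoters of GRCm38.p6, 250 bases before to 50 after the start, were matched for 9 of the 10 genes. Plxna1 had none, and Plxnb2 had a pair of starts. The Unc5a window is chr13:54949161-54949460 and the Dcbld2 window chr16:58408285-58408584, both on the plus strand. Capitals mark GC boxes, the motif GGGCGG on either strand, and matches that overlap run together.
Unc5a: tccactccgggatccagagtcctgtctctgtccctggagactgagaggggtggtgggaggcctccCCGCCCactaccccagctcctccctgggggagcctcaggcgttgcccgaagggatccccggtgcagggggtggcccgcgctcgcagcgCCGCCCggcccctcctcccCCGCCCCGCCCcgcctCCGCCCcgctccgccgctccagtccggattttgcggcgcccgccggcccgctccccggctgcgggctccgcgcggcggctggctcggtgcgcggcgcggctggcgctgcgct
Dcbld2: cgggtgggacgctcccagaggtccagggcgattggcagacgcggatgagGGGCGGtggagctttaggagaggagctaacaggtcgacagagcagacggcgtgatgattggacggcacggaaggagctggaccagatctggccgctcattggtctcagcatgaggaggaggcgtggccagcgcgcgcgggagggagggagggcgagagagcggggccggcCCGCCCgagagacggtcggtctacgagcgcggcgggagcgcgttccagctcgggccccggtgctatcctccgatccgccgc
The Unc5a window was 78.3% G or C and held 37 CpG dinucleotides, and the Dcbld2 window was 69.7% G or C with 35 CpG. The median share of G or C was 69.7% in the receptor windows. It was 63.3% for genes higher under the c-Myc inhibitor and 60.3% for genes tested in that series. A GC box was present in 10 of the 10 windows, which cover 9 of the receptor genes. This compares with 69.3% of the 913 promoters of genes that were higher under the c-Myc inhibitor. It was in 59.5% of the 12090 promoters of genes tested in that series and 35.7% of all 32851 promoters. The E-box CACGTG, the palindromic motif that c-Myc and Max bind together, was in 0 of the 10 windows, against 9.63% of the promoters of tested genes and 9.75% of those of the higher genes. These are matches of letters in a window of 300 bases and say nothing of whether a factor binds there.

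The last bases of an mRNA hold the polyadenylation signal AATAAA and, in some stored oocyte mRNAs, a cytoplasmic polyadenylation element (CPE). The elements searched for in the last 100 bases were AATAAA and the CPE forms TTTTAT and TTTTAAT, on the transcript strand and in the GENCODE vM21 transcript with the longest coding part. Stretches of 30 bases are shown for Unc5a and for Unc5b, the only one of the 10 genes with a CPE there, with the elements in capitals.
Unc5a: tgtaAATAAAttatatatatatattgctaa
Unc5b: TTTTATgaAATAAAttatatttcctagtct
AATAAA was found in 8 of the 10 receptor genes, against 74.2% of the 855 genes that were higher under the c-Myc inhibitor and 65.3% of 10917 tested genes. A CPE was found in 1 of the 10, against 2184 of the tested genes and 27.6% of the higher genes. The median 3′ UTR length was 2294 bases for the receptor genes and 1045 bases for the tested genes.

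In c-Myc inhibitor embryos 6 of the 10 receptor genes were higher than in control embryos and none was lower (edgeR quasi-likelihood test, adjusted p under 0.05). They were Unc5a, Plxna1, Plxnb2, Plxna2, Dcbld2 and Plxnb1. Of all 13003 genes tested, 6.82% were higher and 4.08% lower. Of the receptor genes 9 passed the filter on low counts, and Plxna3 did not. In 1 fit of all 26 libraries Plxnb1 and Unc5a did not pass. The 7 treated and 7 control libraries did not overlap for those 6 genes, as for 2.71% of all genes tested in that direction. The summed level of the 10 genes was 995 to 1310 CPM in c-Myc inhibitor embryos and 421 to 577 CPM in their controls, 393 to 539 CPM in alpha-amanitin embryos and 451 to 576 CPM in their controls, and 898 to 1080 CPM in oocytes. CPM are shares of a library, so a change in 1 transcript and an opposite change in the rest of the RNA cannot be told apart, nor can fewer cells of a type and less RNA per cell. Because the choice of genes may have used these contrasts, nothing is read from the shares.

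**Figure D1:**
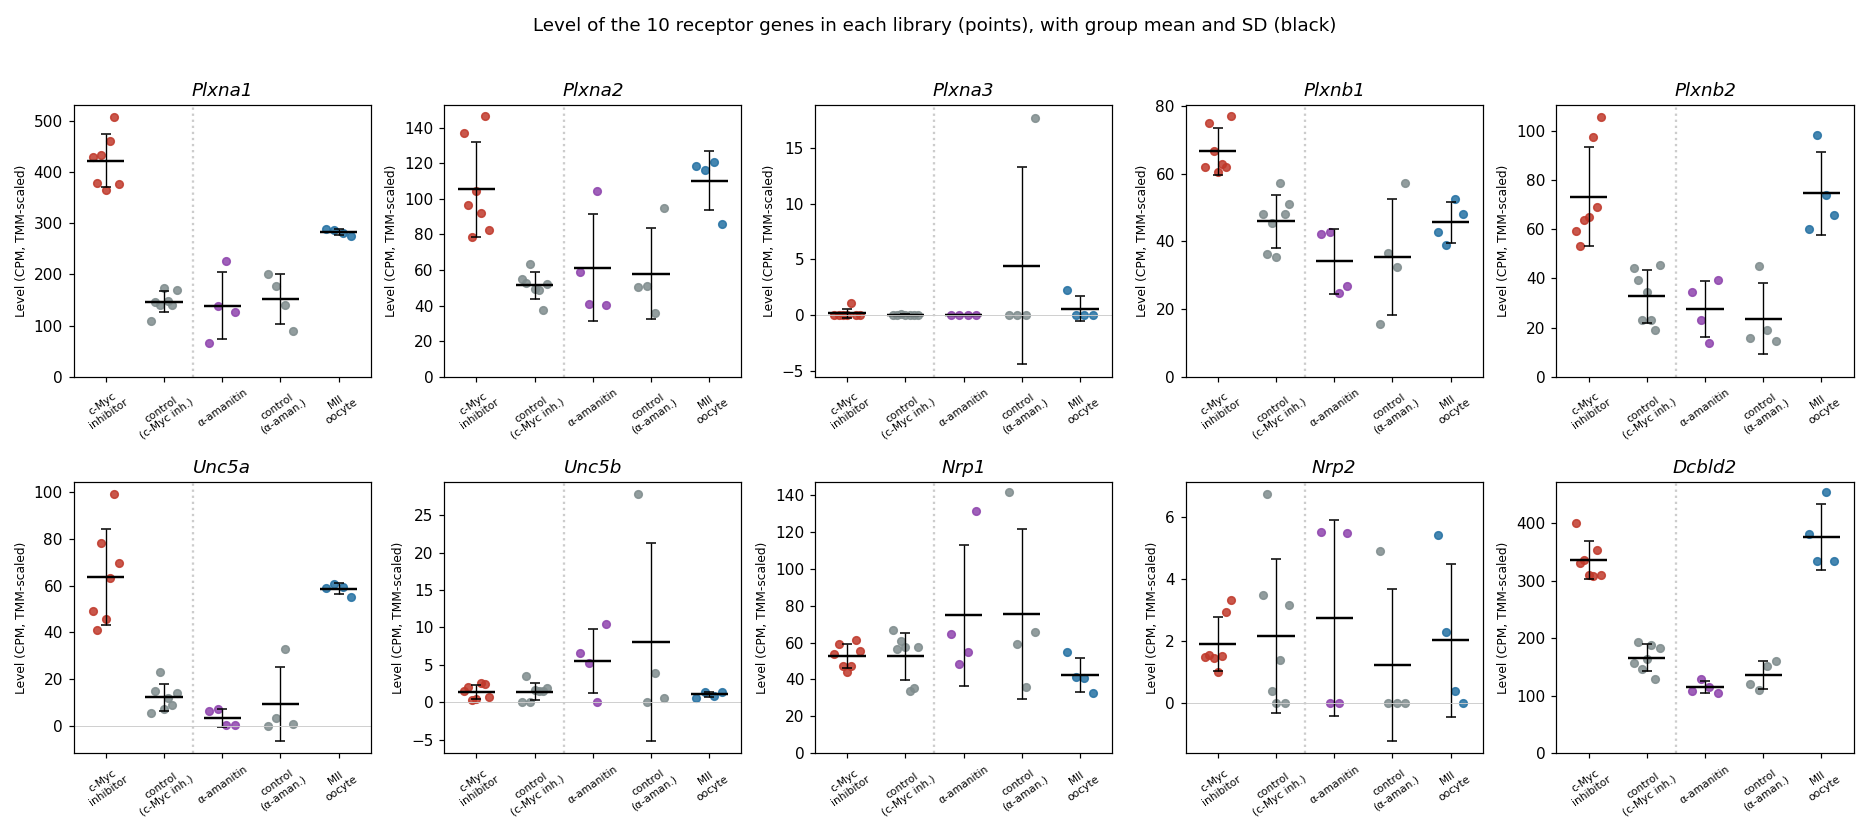
Level of each of the 10 receptor genes in each library, in CPM on a linear axis with its own range per gene, with 1 point per library and bars for the mean ± SD. Plxna1, Plxna2, Plxnb2, Unc5a and Dcbld2 were high in c-Myc inhibitor embryos and oocytes and lower in the other 3 groups, and Nrp1 was not.

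Of the 3 class A plexins among the 10 genes, the receptors that work with neuropilins, Plxna1 had the highest level per kilobase of exon in every group. It lies on chromosome 6 (89316314 to 89362620, minus strand, GRCm38). Its level was 365 to 508 CPM in c-Myc inhibitor embryos (median 430) and 110 to 174 CPM in their controls (median 146), with no overlap. In the other series it was 65.6, 138, 226 and 126 CPM in alpha-amanitin embryos, against 200, 177, 140 and 90.2 CPM in control embryos. In oocytes it was 289, 286, 280 and 276 CPM. The oocyte libraries were thus nearly alike, with a coefficient of variation of 2.09%, while the embryos of that series varied about their mean by 47.6% with alpha-amanitin and 31.6% without. The means were 422 ± 52.0 CPM in c-Myc inhibitor embryos and 147 ± 21.2 CPM in their controls (SD, n = 7 each). The log2 fold change was 1.54 (SE 0.10). Every embryo library of the alpha-amanitin series lay below every oocyte library. The fitted differences, -0.91 (SE 0.29) for control embryos and -1.03 (SE 0.29) for alpha-amanitin embryos, nonetheless did not pass the threshold. Of the exon bases of Plxna1, 10.7% overlap the antisense gene Gm26811, which averaged 0.443 CPM over the 26 libraries. The strand setting of the counting is not given, so reads from that stretch cannot be assigned to 1 of the pair.

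Plxna2, a partner of neuropilins in semaphorin signalling, lies on chromosome 1 (194618218 to 194816869, plus strand). Its level was 78.2 to 147 CPM in c-Myc inhibitor embryos (median 96.7), against 37.6 to 63.4 CPM in their controls (median 52.0). Alpha-amanitin embryos had 58.8, 40.8, 104 and 40.4 CPM, and their controls had 50.1, 50.8, 35.8 and 94.8 CPM. Oocytes had 118, 116, 121 and 85.6 CPM. In each group of embryos of the alpha-amanitin series 1 library reached into the oocyte range, and the other 3 lay below it. The log2 fold change under the c-Myc inhibitor was 1.05 (SE 0.14), and control embryos differed from oocytes by -0.94 (SE 0.36), which did not pass.

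Plxna3, a class A plexin on the X chromosome (74329066 to 74344689, plus strand), was not detected in most libraries. It had counts in 4 of the 26 libraries. These were 30 counts (1.12 CPM) in c-Myc inhibitor embryo replicate 5, 2 counts (0.0957 CPM) in control replicate 4 of that series, 325 counts (17.7 CPM) in control replicate 4 of the alpha-amanitin series and 57 counts (2.24 CPM) in oocyte replicate 1. All 4 alpha-amanitin embryo libraries had 0 counts. The filter on low counts left Plxna3 out, and no fold change is given.

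The class B plexins are receptors of class 4 semaphorins and bind PDZ-domain exchange factors. Plxnb2 lies on chromosome 15 (89155549 to 89180788, minus strand). It was at 53.0 to 106 CPM in c-Myc inhibitor embryos (median 65.0) and at 19.0 to 45.5 CPM in their controls (median 34.6). Its levels were 34.5, 23.1, 13.6 and 39.2 CPM in alpha-amanitin embryos, 15.8, 45.2, 18.9 and 14.4 CPM in their controls, and 60.3, 98.4, 74.0 and 65.9 CPM in oocytes. No embryo library of the alpha-amanitin series reached the lowest oocyte library. Its log2 fold change was 1.18 (SE 0.20) under the c-Myc inhibitor. The fitted difference was -1.68 (SE 0.48) between control embryos and oocytes and -1.42 (SE 0.47) between alpha-amanitin embryos and oocytes, and neither passed.

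Plxnb1 (chromosome 9, 109095389 to 109119917, plus strand) is a receptor for Sema4d. It was at 60.4 to 77.1 CPM in c-Myc inhibitor embryos (median 62.8) and at 35.2 to 57.1 CPM in their controls (median 47.9). The gap between the lowest treated and the highest control library was small, and the log2 fold change of 0.55 (SE 0.13) was the smallest of the 6. Alpha-amanitin embryos had 42.1, 42.8, 24.8 and 26.9 CPM, their controls had 15.6, 36.5, 32.3 and 57.3 CPM, and oocytes had 42.8, 38.9, 52.5 and 48.2 CPM. These 3 groups overlapped, and the mean of the c-Myc inhibitor series controls, 45.9 ± 7.83 CPM (SD, n = 7), was within the spread of the oocytes, 45.6 ± 5.98 CPM (SD, n = 4). In this Plxnb1 differed from Plxna1, Plxna2, Plxnb2, Unc5a and Dcbld2, whose control embryos of that series had 20.8% to 51.9% of the oocyte mean. Those controls and the oocytes lie in different series, so this was not tested. Controls of the oocytes' own series had 77.7% of the oocyte mean for Plxnb1 and 15.9% to 53.7% for those genes.

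Unc5a, a netrin receptor that also acts as a dependence receptor (chromosome 13, 54949411 to 55006018, plus strand), had the largest change. It was at 41.2 to 99.2 CPM in c-Myc inhibitor embryos (median 63.3), against 5.50 to 22.8 CPM in their controls (median 11.9). The means were 63.8 ± 20.6 CPM in c-Myc inhibitor embryos and 12.2 ± 5.83 CPM in their controls (SD, n = 7 each). The log2 fold change was 2.40 (SE 0.27). In the other series Unc5a was at 6.34, 7.29, 0.183 and 0.0932 CPM in alpha-amanitin embryos and at 0, 3.46, 33.0 and 0.871 CPM in their controls. Oocytes had 59.0, 60.9, 59.3 and 55.3 CPM. The 4 oocyte libraries differed by a few CPM, and the 8 embryo libraries of that series, all lower, ran from 0 to 33.0 CPM. The fitted differences from oocytes were -2.65 (SE 1.32) for control embryos and -4.03 (SE 1.41) for alpha-amanitin embryos. Neither passed the threshold in the fit of these 12 libraries. The promoter and last bases shown above are those of this gene.

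Unc5b, the UNC5 receptor best known from blood vessels (chromosome 10, 60762593 to 60831581, minus strand), was low. It was at 0.251 to 2.53 CPM in c-Myc inhibitor embryos and at 0 to 3.51 CPM in their controls. Alpha-amanitin embryos had 6.52, 5.28, 0 and 10.4 CPM, their controls had 27.8, 0, 3.93 and 0.599 CPM, and oocytes had 0.590 to 1.34 CPM. The highest value, 27.8 CPM, came from 1 library, and no comparison passed. Its 95% interval for the log2 fold change under the c-Myc inhibitor, -1.79 to 1.81 around 0.01, holds changes of several fold in either direction. This comparison could not have detected them.

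Neither neuropilin passed in any comparison. Nrp1, co-receptor of class 3 semaphorins and of VEGF (chromosome 8, 128358604 to 128503363, plus strand), was at 44.0 to 61.6 CPM in c-Myc inhibitor embryos (median 53.5), against 33.8 to 66.9 CPM in their controls (median 57.3). The log2 fold change was 0.01, and its 95% interval of -0.29 to 0.31 leaves out a doubling. Alpha-amanitin embryos had 64.6, 48.4, 54.6 and 131 CPM, their controls had 142, 59.0, 35.8 and 65.6 CPM, and oocytes had 54.8, 41.4, 40.9 and 32.6 CPM. The fitted difference between control embryos and oocytes was 0.82 (SE 0.42), opposite in sign to those of the plexins, and it did not pass. Nrp2 (chromosome 1, 62703285 to 62818695, plus strand) was at 1.00 to 3.34 CPM in c-Myc inhibitor embryos, 0 to 6.75 CPM in their controls, 5.51, 0, 0 and 5.50 CPM in alpha-amanitin embryos, 4.93, 0, 0 and 0 CPM in their controls, and 5.42, 2.30, 0.375 and 0 CPM in oocytes. With 0 counts in 8 of the 26 libraries, Nrp2 gave log2 fold changes with SEs of 0.93 to 2.54.

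Dcbld2 (chromosome 16, 58408443 to 58469727, plus strand) had the smallest SE of the 9 genes in every comparison. Its level was 308 to 400.5 CPM in c-Myc inhibitor embryos (median 330.0), against 130 to 193 CPM in their controls (median 163). Alpha-amanitin embryos had 109, 129, 115 and 105 CPM, their controls had 120, 110, 151 and 161 CPM, and oocytes had 381, 335, 454 and 334 CPM. The treated embryos of the c-Myc inhibitor series overlapped the oocytes, and every library of the other 3 groups lay below both. It differed by 1.03 on the log2 scale (SE 0.09) under the c-Myc inhibitor. It was -1.48 (SE 0.19) in control embryos against oocytes and -1.71 (SE 0.19) in alpha-amanitin embryos against oocytes, and both passed. Dcbld2 shares 1603 exon bases, 19.1% of its exon length, with St3gal6 on the opposite strand, which averaged 7.22 CPM over the 26 libraries.

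**Figure D2:**
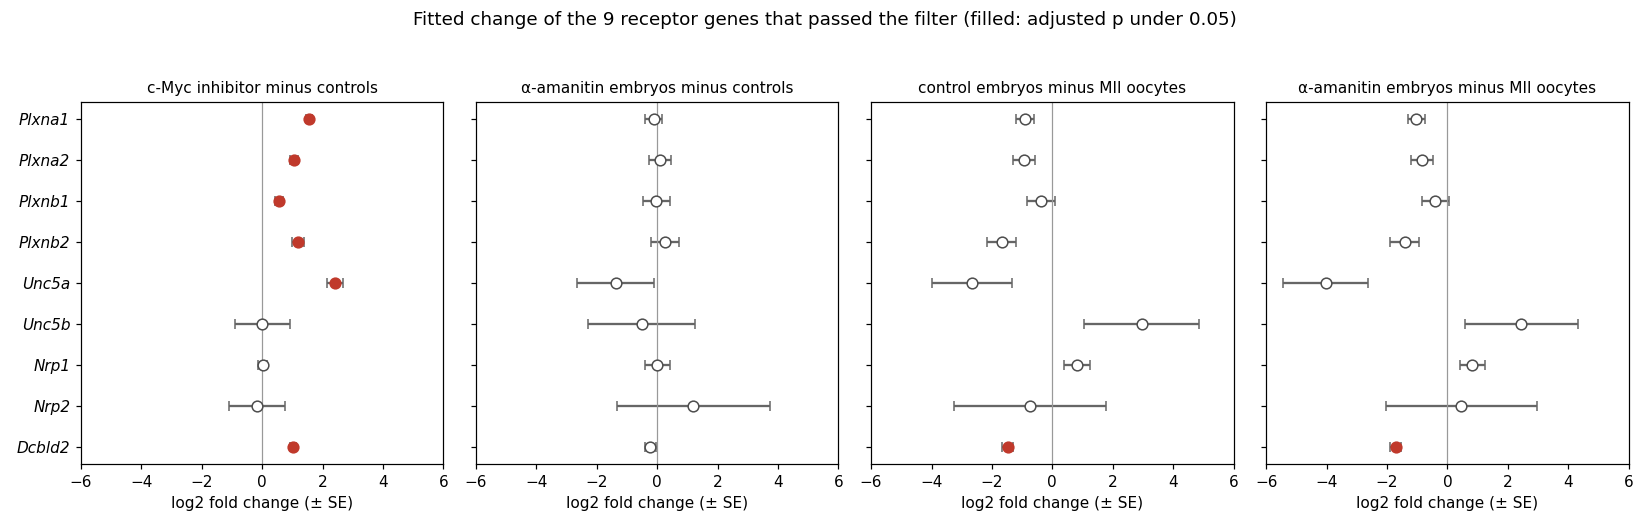
Fitted log2 fold change ± SE of the 9 receptor genes that passed the filter, with 1 panel per comparison and filled points where the adjusted p was under 0.05. In the panel of the c-Myc inhibitor against control 6 points are filled, in that of alpha-amanitin against control none, and in each panel against oocytes Dcbld2 alone.

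In alpha-amanitin embryos none of the 9 receptor genes tested passed against control embryos by edgeR. Of all 13133 genes tested 0.0228% were higher and 0.00761% lower. On simulated data this comparison recovered only 10% of 2-fold and 25% of 4-fold changes in genes drawn at random from all those tested. Most such changes would thus not pass. The rate was not obtained for the receptor genes themselves, whose SEs differ widely. At an unadjusted p under 0.05 the count was also 0 of the 9, against 986 of the 13133 genes. It was 0 of 8 with DESeq2, which called 432 of 15143 genes, and 0 of 9 with limma voom, which called 10 of 13133. The 4 treated and 4 control libraries overlapped for all 10 genes, while they did not for 1.27% of genes tested as higher and 1.52% as lower. The log2 fold changes were -0.12 (SE 0.28) for Plxna1, 0.09 (SE 0.36) for Plxna2, -0.03 (SE 0.45) for Plxnb1, 0.26 (SE 0.47) for Plxnb2 and -0.23 (SE 0.18) for Dcbld2. The 95% interval for Dcbld2 was -0.59 to 0.13, and its value under the c-Myc inhibitor was 1.03. The choice of genes may have used that value, so it is set beside the interval only. The interval for Unc5a, -3.88 to 1.11 around -1.38, is too wide to describe a change. The difference between the effects of the c-Myc inhibitor and alpha-amanitin, taken from a single fit to both series' 22 embryo libraries, passed for Plxna1 (1.66, SE 0.30) and Dcbld2 (1.27, SE 0.18), and 0.678% of the 15790 genes tested passed in that direction. It was 3.77 (SE 1.26) for Unc5a, 0.97 (SE 0.37) for Plxna2, 0.93 (SE 0.48) for Plxnb2 and 0.59 (SE 0.37) for Plxnb1. None of these passed in that fit. Unc5a did pass with DESeq2 and with no filter, and Plxna2 without alpha-amanitin embryo replicate 3. The inhibitors were used in separate series, and a difference between series within the treated or control embryos cannot be told apart from these values. Plxna1 did not pass when the replicate number was added as a block.

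Between control embryos of the alpha-amanitin series and oocytes Dcbld2 was the 1 receptor gene that passed, as lower, and 1.78% of the 13133 genes tested were lower and 1.11% higher. The libraries did not overlap for 4 of the 10 genes, Plxna1, Plxnb2, Unc5a and Dcbld2, all lower in embryos, as for 9.34% of genes tested. In alpha-amanitin embryos against the same oocytes Dcbld2 again was the 1 gene that passed, with 1.27% of genes lower and 0.442% higher, and the same 4 genes did not overlap, as for 8.16% of genes tested. Both comparisons and that of alpha-amanitin with its control share libraries, so they are set side by side only. The counts against oocytes depend on the method and on single libraries. For control embryos, limma voom called 5 receptor genes, all lower, and 660 of the 13133 genes as lower. Leaving out 1 library called up to 3 receptor genes and 212 to 725 genes in either direction, against 380, with Plxna1 passing without alpha-amanitin replicate 1 or 3 and Plxnb2 without control replicate 2 or alpha-amanitin replicate 3. For alpha-amanitin embryos, limma voom called 4 receptor genes, all lower, and 401 of all genes as lower, and Plxna1 passed without alpha-amanitin replicate 3.

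Measured against the oocyte mean, the c-Myc inhibitor embryos held 149% for Plxna1, 146% for Plxnb1, 109% for Unc5a, 98.3% for Plxnb2, 95.6% for Plxna2 and 89.2% for Dcbld2. Control embryos of the same series held 51.9% for Plxna1, 101% for Plxnb1, 20.8% for Unc5a, 43.8% for Plxnb2, 46.5% for Plxna2 and 44.1% for Dcbld2. For Plxna2, Plxnb2, Unc5a and Dcbld2 the c-Myc inhibitor embryos overlapped the oocytes. For Plxna1 the lowest of the 7 libraries, 365 CPM, lay above the highest oocyte library, 289 CPM. Plxnb1 likewise had its lowest c-Myc inhibitor library, at 60.4 CPM, above its highest oocyte library, at 52.5 CPM. The c-Myc inhibitor embryos and the oocytes lie in different series, so this comparison was not tested. Across the table, 883 genes were higher under the c-Myc inhibitor and 234 were lower in control embryos than in oocytes, among 12280 tested in both fits, which share no library. Both held for 159 genes, 18.0% of the first set and 67.9% of the second, and the second set rests on the counts against oocytes that moved with single libraries. Of the 9 receptor genes tested in both, Dcbld2 was the 1 that met both.

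**Figure D3:**
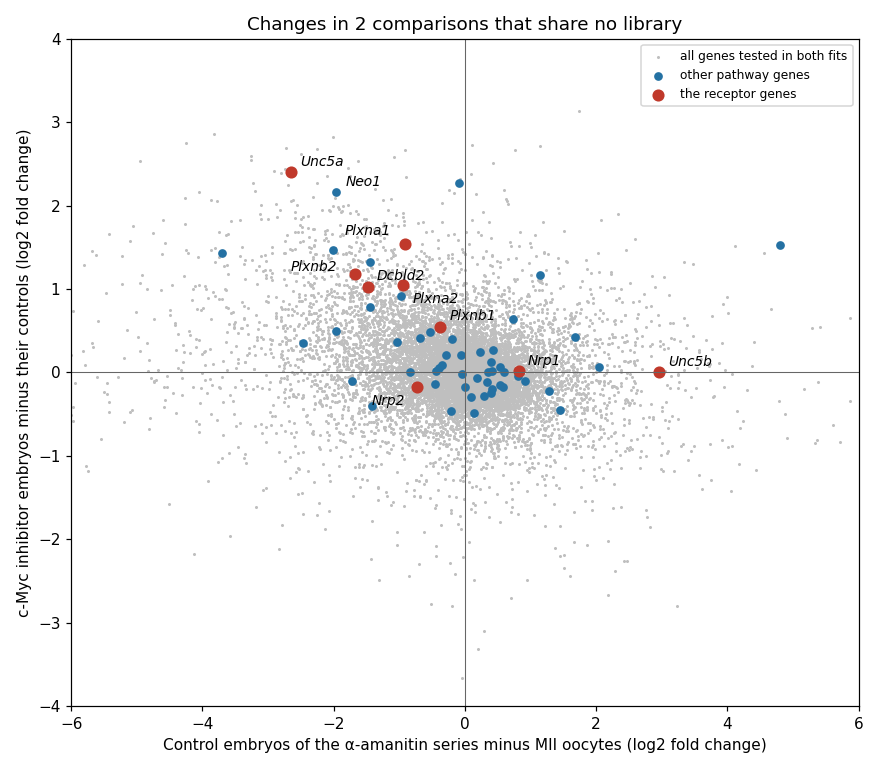
Log2 fold change of c-Myc inhibitor embryos minus their controls (vertical axis) against that of control embryos of the alpha-amanitin series minus MII oocytes (horizontal axis), with 1 point per gene tested in both fits, other pathway genes in blue and the receptor genes in red. Unc5a, Plxnb2, Dcbld2, Plxna2, Plxna1 and Plxnb1 lie in the upper left, higher under the c-Myc inhibitor and with lower fitted values in embryos, and 246 of the 12280 genes lie outside the axes.

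Per kilobase of exon, Dcbld2 and Plxna1 were the most abundant of the 10 transcripts in every group. In c-Myc inhibitor embryos the levels were 46.6 ± 5.75 CPM per kb for Plxna1, 39.9 ± 3.97 for Dcbld2, 15.3 ± 4.94 for Unc5a and 9.51 ± 2.60 for Plxnb2 (SD, n = 7). Plxnb1, Plxna2 and Nrp1 followed at 6.94 ± 0.712, 6.13 ± 1.54 and 5.38 ± 0.672 CPM per kb, neighbours that lay within their spread of each other. In control embryos of that series Dcbld2 was at 19.7 ± 2.77 and Plxna1 at 16.2 ± 2.35 CPM per kb, and the mean of Unc5a, at 2.92 ± 1.40, stood below those of Nrp1, Plxnb1, Plxnb2 and Plxna2. In alpha-amanitin embryos Unc5a was at 0.834 ± 0.929 CPM per kb and in their controls at 2.24 ± 3.80 (SD, n = 4 each). In oocytes Unc5a was again next in order, at 14.1 ± 0.570 CPM per kb, after Dcbld2 at 44.7 ± 6.77 and Plxna1 at 31.2 ± 0.652 (SD, n = 4). Unc5b, Nrp2 and Plxna3 were the lowest 3 in c-Myc inhibitor embryos, their controls and oocytes, with at most 0.227 CPM per kb.

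The other genes of these pathways were taken from 81 genes listed by textbook role, with earlier results of these data known. Counts by list are therefore descriptions only. In the c-Myc inhibitor series 51 of the 81 were tested. Against 6.82% higher and 4.08% lower of all 13003 genes tested, 7 were higher and 3 lower in treated embryos. In 1 fit of all 26 libraries Neo1 was the 1 of these 10 that passed. Of 8 other receptors tested 2 were higher. Neo1, a receptor for netrins and RGM proteins, was at 101 ± 23.5 CPM in c-Myc inhibitor embryos and 22.6 ± 6.14 CPM in their controls (SD, n = 7 each). This was 2.17 on the log2 scale (SE 0.18; adjusted p = 6.96e-09, edgeR). It was at 40.2 ± 34.3 CPM in alpha-amanitin embryos, 38.3 ± 22.1 CPM in their controls and 148 ± 35.2 CPM in oocytes (SD, n = 4 each). Unc5c, another UNC5 netrin receptor, rose less, by 0.41 on the log2 scale (adjusted p = 0.00144), to 396 ± 37.8 CPM in c-Myc inhibitor embryos, against 301 ± 34.7 CPM in their controls. Plxna4, the class A plexin outside the 10 genes, was at 188 ± 38.4 CPM in c-Myc inhibitor embryos and 189 ± 29.7 CPM in their controls.

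Of 11 semaphorins tested in the c-Myc inhibitor series 4 were higher and none lower, against 6.82% and 4.08% of all genes tested. Sema4d, the ligand of Plxnb1, was at 63.3 ± 12.4 CPM in c-Myc inhibitor embryos and 25.6 ± 5.66 CPM in their controls (log2 fold change 1.32, edgeR adjusted p = 2.89e-06). In alpha-amanitin embryos Sema4d was at 83.9 ± 125 CPM, with a median of 21.8 and a highest library of 272 CPM. It was at 24.0 ± 16.1 CPM in their controls and 65.0 ± 11.6 CPM in oocytes (SD, n = 4 each). Sema4b rose by 1.47 on the log2 scale (adjusted p = 0.000754), with a mean of 20.9 CPM in c-Myc inhibitor embryos and 7.63 CPM in their controls. Sema4c, a ligand of Plxnb2, rose by 1.43 (adjusted p = 0.00202), with a mean of 15.2 CPM in c-Myc inhibitor embryos and 5.70 CPM in their controls. Sema6a, a ligand of class A plexins, had an adjusted p of 0.0485, which was lost in 12 of the 14 fits that left out 1 library. None of the 5 netrins and other ligands tested passed by edgeR. The count was also 0 at an unadjusted p under 0.05 and 0 with DESeq2 and limma voom. The genes with the highest mean CPM over the 14 libraries were Rgmb, a ligand of Neo1, at 39.8 ± 4.70 CPM in c-Myc inhibitor embryos and 38.8 ± 6.35 CPM in their controls, and Flrt1, of a family of membrane proteins that bind UNC5 receptors, at 29.0 ± 10.5 CPM in c-Myc inhibitor embryos and 36.0 ± 7.82 CPM in their controls (SD, n = 7 each).

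Of 27 signalling genes tested in the c-Myc inhibitor series 1 was higher and 3 were lower, against 6.82% and 4.08% of all genes tested. Farp2, a Rac exchange factor bound by class A plexins, was at 65.9 ± 9.06 CPM in c-Myc inhibitor embryos and 47.5 ± 7.69 CPM in their controls (adjusted p = 0.0144). Cdc42, a small GTPase of the cytoskeleton, fell by 0.49 on the log2 scale (adjusted p = 0.00496), Nck1, an adaptor of netrin receptors, by 0.47 (adjusted p = 0.0291) and Rras2, an R-Ras-family GTPase, by 0.28 (adjusted p = 0.0279). The calls of Rras2 and Nck1 were lost in 7 and 6 of the 14 fits that left out 1 library.

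In alpha-amanitin embryos 0 of the 57 pathway genes tested passed against their controls by edgeR. Among all genes tested there, 0.0228% were higher and 0.00761% lower. Without adjustment 5 of the 57 had a p under 0.05, against 986 of all 13133 genes. DESeq2 called 1, Flrt2, which had counts in 2 of the 4 alpha-amanitin embryo libraries and in none of their controls. In control embryos against oocytes Neo1 was lower (log2 fold change -1.96, edgeR adjusted p = 0.0249) and Arhgef12, a PDZ-domain exchange factor bound by class B plexins, was higher (0.81, adjusted p = 0.00373). In alpha-amanitin embryos against oocytes Neo1 (-1.90, adjusted p = 0.0463) and Unc5c (-0.99, adjusted p = 0.00909) were lower and Arhgef12 was higher (0.72, adjusted p = 0.0139). Neo1 did not pass in 6 of the 12 fits with 1 library left out for control embryos, nor in 9 of 12 for alpha-amanitin embryos, where Arhgef12 did not pass in 5 of 12. The difference between the effects of the inhibitors passed for Neo1 alone of 62 tested pathway genes (2.11, adjusted p = 0.0344). Neo1 did not pass in 12 of 22 fits with 1 library left out. Among all 15790 genes tested for this difference, 0.678% passed as higher and 0.367% as lower.

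**Figure D4:**
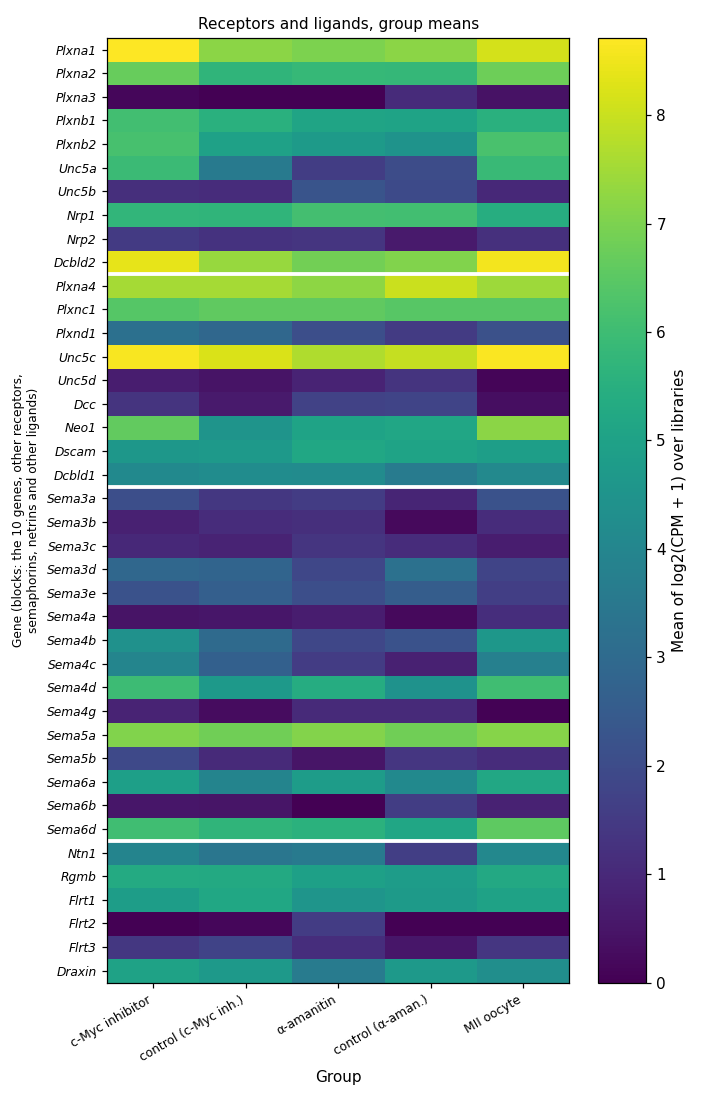
Mean of log2(CPM + 1) over the libraries of each group, as colour, for the 40 receptor and ligand genes of 56 whose mean reached 1 in at least 1 group, in blocks for the 10 genes, other receptors, semaphorins, and netrins and other ligands. Plxna1, Plxna2, Plxnb2, Unc5a, Dcbld2, Neo1, Sema4b, Sema4c and Sema4d are brighter in c-Myc inhibitor embryos and oocytes than in either group of control embryos.

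For the 3 receptor genes with the widest range of group means, the genes with the most similar profile were sought among 12949 genes by the root mean square difference of centred log2(CPM + 1) over the 26 libraries. For Unc5a these were Slc30a4 (0.85), Taldo1 (0.96) and 9330182L06Rik (0.99). Slc30a4 was at 56.7 ± 16.4 CPM in c-Myc inhibitor embryos and 13.6 ± 2.25 CPM in their controls, 5.83 ± 6.85 CPM in alpha-amanitin embryos and 6.02 ± 2.13 CPM in their controls, and 87.6 ± 11.9 CPM in oocytes. For Plxna1 they were Lsm14b (0.28), Prex1 (0.35) and Slc45a3 (0.39), and for Plxnb2 they were Daglb (0.38), Bscl2 (0.40) and Ptprf (0.40). Lsm14b, an oocyte RNA-binding protein, was at 1880 ± 109 CPM in c-Myc inhibitor embryos and 686 ± 152 CPM in their controls, 554 ± 127 CPM in alpha-amanitin embryos and 611 ± 120 CPM in their controls, and 1410 ± 86.9 CPM in oocytes. None of the other 9 receptor genes was among the nearest 3 of any of these.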

How the data were processed

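The deposited values are raw counts of reads per gene, whole numbers for 55401 Ensembl IDs in each of 26 libraries. Per the labels' protocols, the kit was SMARTer Stranded Total RNA-Seq Pico Input. Per the submitters' processing notes, cutadapt 1.7.1, STAR 2.5.0a and GRCm38 were used. How reads were counted, with which strand setting and annotation, is not stated in the sources used here. Symbols came from GENCODE vM21, and the 260 IDs without one held 0.00563% of counts. Genes were tested in R 4.3.3 with the edgeR 4.0.16 quasi-likelihood F test, TMM scaling and filterByExpr (minimum count 10, total 15), with Benjamini-Hochberg adjustment over all genes of a fit and a threshold of 0.05. For the c-Myc inhibitor the fit held its 14 libraries, for the contrasts of the other series its 12, and for the difference of effects the 22 embryo libraries. Groups came from titles and treatment labels. Levels are CPM with TMM-scaled totals over all 26 libraries. DESeq2 1.42.0 and limma 3.58.1 served as alternatives. The edgeR procedure was tested on simulated data. For the c-Myc inhibitor comparison it recovered 50 of 100 genes changed 2-fold and 70 of 100 changed 4-fold. For alpha-amanitin embryos against their controls it recovered 10 and 25 of 100. No pair of replicate columns was identical. The receptor genes and gene lists were chosen with earlier results of these data known. Of the other pathway genes, those called were named, up to 4 per contrast and list by smallest p, or the 2 with the highest mean CPM where none was called, and Plxna4 and Flrt2 are named outside this rule, after their values were seen. No library column was left out, and intervals cover the spread between libraries.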

Additional observations from a re-analysis of the deposited data

Results flagged for a closer look

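In groups of 4 or 7 libraries, 9 of 49 sets of values of the 10 genes had a highest or lowest library far from the rest. In 5 of the 9, Plxna3 in 4 groups and Nrp2 in 1, every other library was at 0, so the gap is the whole range by construction and no chance rate applies. For the other 4, chance gives about 1 in 20 sets if values are normally distributed, which was not tested. In the control embryos of the alpha-amanitin series, 5 sets stood out: Unc5a at 33.0 CPM in replicate 3 (next 3.46), Unc5b at 27.8 CPM in replicate 1 (next 3.93), Plxnb2 at 45.2 CPM in replicate 2 (next 18.9), Nrp2 at 4.93 CPM in replicate 1 and Plxna3 at 17.7 CPM in replicate 4, with the others at 0. They came from 4 different libraries. Plxna3 also stood out at 1.12 CPM in c-Myc inhibitor embryo replicate 5, at 0.0957 CPM (2 counts) in control replicate 4 of that series and at 2.24 CPM in oocyte replicate 1, again with the others at 0. Plxna2 was low in oocyte replicate 4, at 85.6 CPM, with the next at 116 CPM.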

How the results depend on the processing

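Under c-Myc inhibitor the 6 receptor genes passed in every alternative except 1 fit of all 26 libraries, which kept 4 of them and lost Plxnb1 and Unc5a, and 1 instead of 10 pathway genes passed there. That fit called 381 genes in all, against 1418. Against oocytes, the number of receptor genes that passed was 2 with DESeq2, 5 with limma voom, 3 with no filter and 4 in the fit of all libraries for control embryos, and 2, 4, 3 and 4 for alpha-amanitin embryos, each against 1. Pathway genes passing against oocytes numbered 6 with DESeq2, 7 with limma voom and 7 in the fit of all libraries for control embryos, against 2, and 5 with DESeq2 for alpha-amanitin embryos, against 3. For alpha-amanitin against control 1 pathway gene passed with DESeq2 and 1 with no filter, Sema4d as higher, against 0. For the difference of effects 5 pathway genes passed with DESeq2, 3 with no filter and 2 in the fit of all libraries, against 1. Receptor genes passing for that difference numbered 3 with DESeq2 and 3 with no filter, against 2, with Unc5a gained in both. Leaving out 1 library gave 6 to 6, 0 to 0, 1 to 3, 1 to 2 and 2 to 3 receptor genes, and 7 to 9, 0 to 0, 1 to 4, 1 to 3 and 0 to 2 pathway genes, for the c-Myc inhibitor, alpha-amanitin, control embryos against oocytes, alpha-amanitin embryos against oocytes and the difference of effects. Over all genes, alpha-amanitin against control gave 432 calls with DESeq2, 10 with limma voom, 89 with no filter, 103 in the fit of all libraries and 0 with the replicate block, against 4. Control embryos against oocytes gave 1223 with DESeq2, 940 with limma voom and 1409 in the fit of all libraries, against 380, and alpha-amanitin embryos against oocytes gave 801, 542, 859 and, with no filter, 472, against 225. The difference gave 1423 with DESeq2, 443 with no filter and 44 with the replicate block, against 165. Leaving out 1 library gave 1153 to 1472 calls over all genes for the c-Myc inhibitor, 0 to 6 for alpha-amanitin, 212 to 725 and 122 to 330 for control and alpha-amanitin embryos against oocytes, and 92 to 272 for the difference. Same-numbered libraries did not deviate together (correlations of -0.0323 to 0.0462, and 2 of 6 libraries of the c-Myc inhibitor series closest to their own number). This check cannot show whether same-numbered libraries shared a fertilisation or culture, and the labels do not say. With the replicate number as a block, 6 receptor and 7 pathway genes passed under the c-Myc inhibitor, and 1 and 0 for the difference, against 2 and 1. No call changed direction. Of 1233 values of named genes under alternatives, 1129 kept their side of the threshold, 77 lost it and 27 gained it, and the causes were not tested.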
